A study of Homo sapiens with 2 samples.

Results

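The transcripts of 10 secreted immune messengers were followed in ovarian carcinoma cells: the interleukins IL1A, IL1B, IL6, IL15, IL18, IL23A and IL32, the interleukin-6 family member LIF, and the colony-stimulating factors CSF1 and CSF2. They were chosen by gene name from the 36601 genes of the deposited matrix, and all 10 were found. The cells were of the established line OVCAR5, labelled as ovarian carcinoma, and carried an IFNy-sensing reporter and cyan fluorescent protein (CFP). They were grown as tumours in NSG-b2m-/- mice, which lack T, B and natural killer cells of their own. Cells of 5 tumours were dissociated, treated outside the animal for 6 h, marked with hashtag antibodies, pooled and sorted for CFP. All groups thus share the line, the reporter, the host and the dissociation. The 15 conditions named in the labels are 5 unstimulated samples, 5 with 10 ng/ml TNFa and 5 with 100 ng/ml IFNy plus 10 ng/ml TNFa. No sample with IFNy alone is named.

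The pool gave 1 gene expression library and 1 hashtag library, and 5267 of the 5269 deposited barcodes had counts in both. After removal of barcodes with fewer than 1000 detected genes or over 20% mitochondrial counts, 3538 cells were kept. Most carried a clear pair of hashtags, and the 3144 such cells (88.9%) formed 15 hashed samples of 49 to 630 cells and 582102 to 7324691 unique molecular identifiers (UMIs, 1 per captured transcript). Hashed samples are named here by their pair, such as HTO2+HTO7.

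No label ties a hashtag to a treatment. The assignment of hashed samples to treatments used here was inferred with expression in view, and it is not a label. The both-cytokine set holds HTO2+HTO7, HTO3+HTO6, HTO3+HTO9, HTO4+HTO6 and HTO4+HTO9 (919 cells). The TNF set holds HTO2+HTO6, HTO2+HTO10, HTO3+HTO5, HTO3+HTO8 and HTO4+HTO8 (1277 cells). The unstimulated set holds HTO2+HTO5, HTO2+HTO8, HTO3+HTO7, HTO4+HTO7 and HTO4+HTO10 (948 cells). Values in sentences below follow these orders. Because a p-value between inferred sets would not test the treatments, none is given, and each hashed sample's value is shown. Which tumour each hashed sample came from is not given either.

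As a description of the sets, 20 genes known to respond to interferon-gamma, none of them among the 10 cytokines, summed to 199.96 to 301 UMIs per 10000 in the both-cytokine set. The same list summed to 8.14 to 16.0 in the TNF set and 5.86 to 8.63 in the unstimulated set. A list of 20 NF-kB response genes summed to 90.7 to 111, 62.8 to 93.7 and 8.24 to 12.7. Epithelial markers were expressed in every hashed sample (summed level 43.3 to 92.9), led by the keratins KRT18, KRT8 and KRT19. WFDC2, PAX8 and MUC16, all used as ovarian carcinoma markers, had pooled levels of 2.23, 0.175 and 0.0191. The lowest of the 13 markers were MUC16 (0.0191), CDH1 (0.0329) and MUC1 (0.0926). The epithelial sum moved with the sets: 43.3 to 52.4 in the both-cytokine, 48.2 to 71.3 in the TNF and 75.0 to 92.9 in the unstimulated set. Its part in the results was not tested. Of 14 T and natural killer cell markers, 9 were at 0, among them CD3D, CD3E, TRAC, NKG7 and PRF1, and the list summed to at most 0.0263. Markers of B cells (at most 0.050) and fibroblasts (at most 0.0669) were also near 0. The 12 myeloid markers summed to 0.326 to 0.625, mostly from CD68 (pooled level 0.314) and LYZ (0.144), with CD163 and FCGR3A at 0. The 8 endothelial markers summed to 0.440 to 0.617, nearly all from EGFL7 (pooled level 0.488), with KDR at 0. For both lists the ranges of the sets overlapped: the myeloid medians were 0.508, 0.517 and 0.578, and the endothelial medians 0.468, 0.499 and 0.549, for the both-cytokine, TNF and unstimulated sets. None of the marker lists was a check for cells of the mouse host, because the genes and the reference genome were human.

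Interleukins and colony-stimulating factors are small secreted proteins through which cells direct immune cells. IL-1 alpha, IL-1 beta and IL-18 belong to the interleukin-1 family and are made as precursors. IL-1 beta and IL-18 are cut to their active form by the protease caspase-1. LIF and IL-6 signal through the shared receptor chain gp130, encoded by IL6ST. IL-15 is carried on its own receptor chain, IL15RA, and presented to T and natural killer cells. CSF1 and CSF2 support macrophages, granulocytes and dendritic cells. Transcription of many of these genes is known to be driven by NF-kB downstream of TNF, and of some by interferon-activated STAT and IRF factors.

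Promoter sequence was read for the members with a RefSeq window, 6 of 10 (IL1A, IL1B, IL6, IL23A, IL32 and CSF2, 8 windows, build GRCh38.p14). Each window spans 250 bases before to 50 bases after an annotated start. Those of IL32, IL23A, IL1B and CSF2 are printed because these genes show the different patterns described below. Capitals mark matches to the motifs searched on both strands, and positions count from the start site, with the base before it at -1.

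IL32, chr16:3065153-3065452, plus strand: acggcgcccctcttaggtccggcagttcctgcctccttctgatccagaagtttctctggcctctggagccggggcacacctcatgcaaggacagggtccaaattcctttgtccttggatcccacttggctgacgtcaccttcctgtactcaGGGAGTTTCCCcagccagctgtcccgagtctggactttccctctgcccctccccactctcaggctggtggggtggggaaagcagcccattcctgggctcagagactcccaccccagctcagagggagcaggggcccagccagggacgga

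IL23A, chr12:56338634-56338933, plus strand: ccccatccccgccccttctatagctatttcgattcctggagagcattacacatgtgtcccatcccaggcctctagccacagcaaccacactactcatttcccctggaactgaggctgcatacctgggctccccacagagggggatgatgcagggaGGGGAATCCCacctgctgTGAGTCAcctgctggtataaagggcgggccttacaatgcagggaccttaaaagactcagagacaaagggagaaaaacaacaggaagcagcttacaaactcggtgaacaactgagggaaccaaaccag

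IL1B, chr2:112836730-112837029, minus strand: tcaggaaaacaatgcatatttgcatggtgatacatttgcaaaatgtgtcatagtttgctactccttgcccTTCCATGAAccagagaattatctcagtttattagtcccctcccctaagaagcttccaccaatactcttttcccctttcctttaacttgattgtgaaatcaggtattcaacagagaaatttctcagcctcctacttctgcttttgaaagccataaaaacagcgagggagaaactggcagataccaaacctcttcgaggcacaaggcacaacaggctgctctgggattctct

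CSF2, chr5:132073539-132073838, plus strand: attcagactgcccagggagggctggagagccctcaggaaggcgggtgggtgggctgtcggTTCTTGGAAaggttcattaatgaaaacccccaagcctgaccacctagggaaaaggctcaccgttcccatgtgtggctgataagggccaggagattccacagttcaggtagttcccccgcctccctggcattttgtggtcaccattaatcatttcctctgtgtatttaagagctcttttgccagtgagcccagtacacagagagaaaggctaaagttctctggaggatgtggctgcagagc

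The kB consensus, the sequence class bound by NF-kB, was matched in IL32 at -99 and -98 by overlapping stretches (GGGAGTTTCC and GGAGTTTCCC), in IL23A at -95 (GGGGAATCCC) and in IL6 at -73 (GGGATTTTCC). The STAT motif GAS, searched as TTCNNNGAA, was matched in IL1B at -180 (TTCCATGAA) and in CSF2 at -190 (TTCTTGGAA). An AP-1 site, searched as TGANTCA, was found in IL23A at -77 (TGAGTCA) and in IL1A at -12 (TGACTCA) and 38 (TGAGTCA). The interferon-response core, searched as GAAANNGAA, was found in IL6 at 26 (GAAAGAGAA). The second IL32 window held none of the 4 motifs, and the second IL1A window, which overlaps the first, held the same AP-1 sites. Of 35116 promoter windows of 300 bases, 14.0% held the kB consensus, 7.66% GAS, 8.11% the interferon-response core and 7.71% AP-1. These matches describe the letters only, and no binding was measured.

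Levels are summed UMIs of a gene per 10000 UMIs of a hashed sample. A gene was tested when its mean level over the 15 hashed samples was at least 0.05, which 9361 genes and 7 of the 10 cytokines reached. IL23A (0.0405) and CSF2 (0.0475) lay just under that limit and IL1A (0.0530) just over it, while IL6 had a mean of 0.0108. IL1A passed only through the sets in which it was high. A difference is called where the 5 levels of one set do not overlap the 5 of the other and the medians differ at least 2-fold.

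Between the inferred TNF and unstimulated sets, IL1A, IL1B, IL32 and CSF1 were called higher, 4 of the 7 tested, and 0 were called lower. Over all genes tested 1.88% were called higher and 0.395% lower. IL1A could enter this count only by being high in a stimulated set. Without it 3 of the other 6 were called higher. Between the both-cytokine and TNF sets, IL15 and IL32 were called higher (2 of 7, beside 2.87% of all genes) and IL18 lower (1 of 7, beside 1.63%). Between the both-cytokine and unstimulated sets, IL1A, IL1B, IL15, IL32 and CSF1 were called higher (5 of 7, or 4 of 6 without IL1A, beside 5.08%) and IL18 lower (1 of 7, beside 5.63%). Of the cytokines under the limit on level, CSF2 did not overlap for TNF over unstimulated and for both-cytokine over TNF. Neither did IL6 for TNF over unstimulated, on 12 and 1 counts. Among the 7 tested, the genes called were also those that separated by lack of overlap alone, whatever the ratio. Over all genes that share was 4.04% higher and 4.09% lower for TNF over unstimulated, 5.7% and 9.34% for both-cytokine over TNF, and 8.57% and 19.8% for both-cytokine over unstimulated. The comparisons share hashed samples, so their counts are not independent. The median log2 ratio over all genes was -0.07, -0.17 and -0.24 for TNF over unstimulated, both-cytokine over TNF and both-cytokine over unstimulated. With totals scaled by the trimmed mean of M-values (TMM), it was 0.01, -0.02 and -0.02. That scaling also moved the share of higher calls among all calls, from 82.6% to 88.4%, from 63.7% to 80.6% and from 47.5% to 66.3%.

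**Figure D1:**
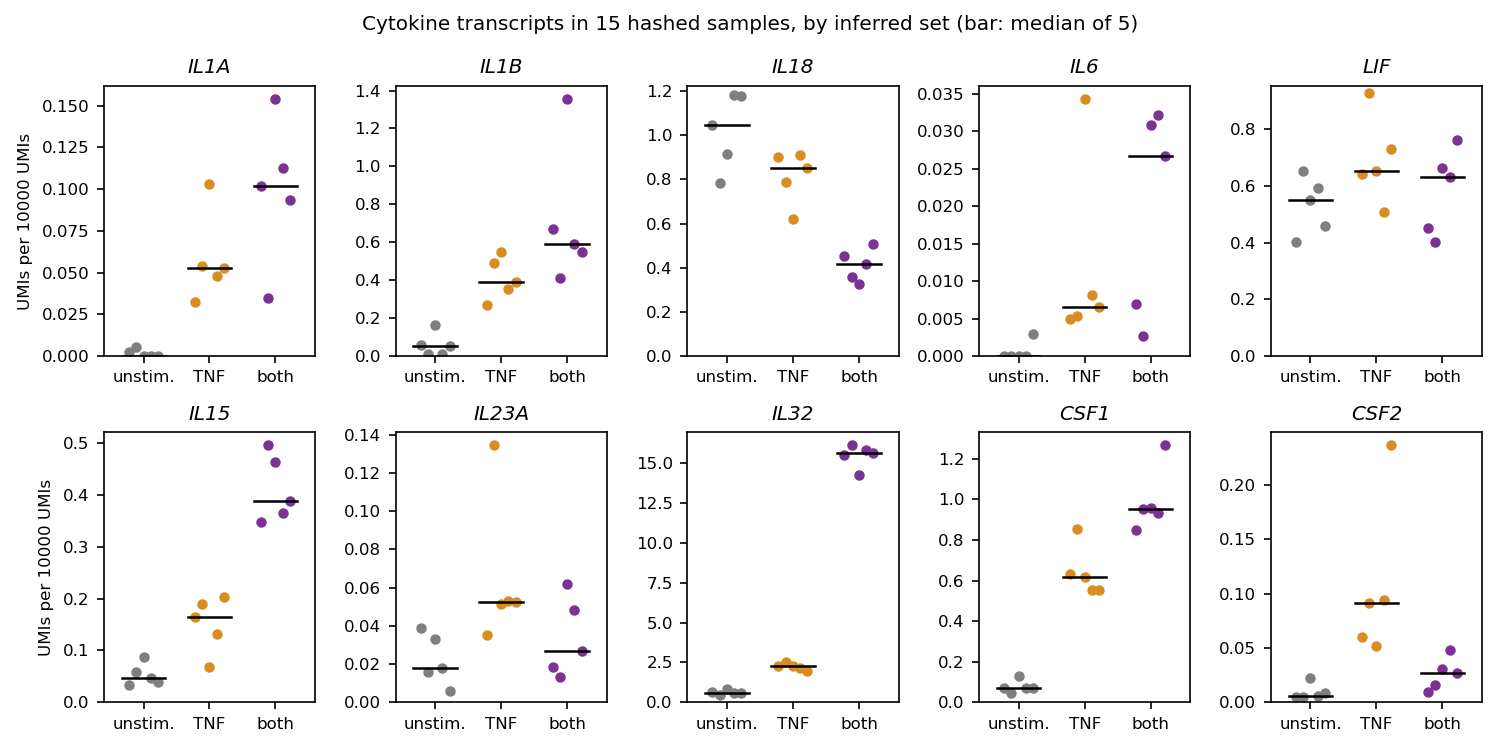
Level of each cytokine gene (UMIs per 10000 UMIs, y axis) in the 15 hashed samples, 1 point each, grouped by inferred set, with a bar at the median of 5. Each panel has its own scale from 0. The 5 both-cytokine points of IL32 sit between 14.2 and 16.1, above all others, while those of IL18 are the lowest of their panel.

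IL32 was higher in the TNF than in the unstimulated set and higher again in the both-cytokine set. IL-32 is an inflammatory cytokine of human cells with no known mouse counterpart. The gene lies on chromosome 16 at 3065297 to 3082192, plus strand (GENCODE 29, GRCh38). Its level was 15.5, 16.1, 14.2, 15.8 and 15.6 in the both-cytokine set, 2.30, 2.55, 2.30, 2.18 and 1.98 in the TNF set, and 0.648, 0.483, 0.848, 0.581 and 0.596 in the unstimulated set. The 3 sets formed separate bands with no overlap. The median of the TNF set was 3.86 times that of the unstimulated set, and the median of the both-cytokine set 6.79 times that of the TNF set and 26.2 times that of the unstimulated set. Pooled over cells, the last ratio was 25.6, with a 95% interval of 23.8 to 27.6 for counting error alone. AC108134.3, a gene annotated on the opposite strand of this locus, had 15 counts.

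Nearly every cell of the both-cytokine set held an IL32 UMI. To compare shares at 1 depth, each cell was thinned to 5000 UMIs, which left 2928 cells and dropped 216 shallower ones. The share of thinned cells with an IL32 UMI was 91.8% to 98.3% in the both-cytokine set (median 94.8%), 49.9% to 58.3% in the TNF set (median 54.7%) and 18.5% to 37.9% in the unstimulated set (median 24.9%). Without thinning, the medians were 98.1%, 69.5% and 39.8%. A both-cytokine cell held a median of 7 IL32 UMIs of 5000, and 35.6% of them held at least 10. The 10% of cells with the most IL32 held 24.8% of that set's IL32 UMIs, against 41.1% in the TNF set. The pool was sorted for CFP, which the tumour cells carried, and no other cell type was identified to measure a background share from free RNA. IL18BP, described below, was seen in a median of 1.48% of thinned unstimulated cells and 30.2% of both-cytokine cells. The part of free RNA in the lower sets was not tested.

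**Figure D2:**
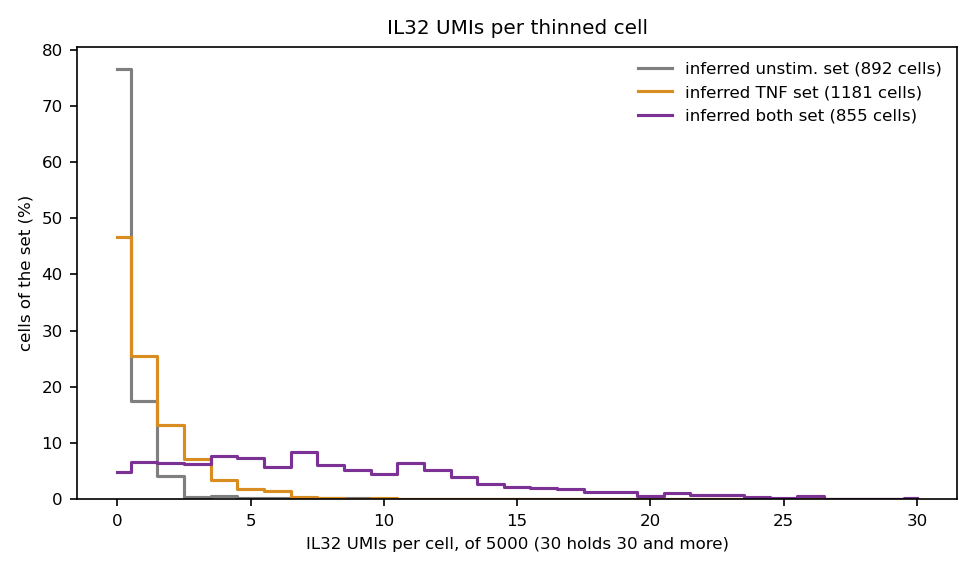
Distribution of IL32 UMIs per cell after thinning to 5000 UMIs (x axis, 30 holds 30 and more) as a percent of the cells of each inferred set (y axis). Unstimulated cells pile up at 0, TNF cells at 0 to 3, and both-cytokine cells spread broadly around their median of 7.

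Within hashed samples of the both-cytokine and TNF sets, cells with more IL32 also had more of the interferon-gamma list. Spearman correlations across thinned cells of a both-cytokine sample ran from 0.43 to 0.60 (median 0.47). They had a median of 0.31 in the TNF set and 0.08 in the unstimulated set, where they ran from -0.02 to 0.20. With the NF-kB list the medians were 0.42, 0.34 and 0.11, and with the epithelial markers -0.17, -0.07 and -0.07. These are descriptions over 45 to 589 cells per hashed sample, which share 1 library. Over the 15 hashed samples, GBP3, an interferon-induced GTPase, was most like IL32 (Pearson r = 0.994 on log2 of the level plus 0.05, among 5343 genes). CYLD, a deubiquitinase that restrains NF-kB, followed at 0.990. Such correlations over hashed samples, here and below, hold the differences between the inferred sets.

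CSF1, the growth factor of macrophages, was low in the unstimulated set and higher in both others. Its gene lies on chromosome 1 at 109910242 to 109930992, plus strand. Its level was 0.852, 0.955, 0.956, 0.933 and 1.27 in the both-cytokine set, 0.633, 0.856, 0.618, 0.556 and 0.552 in the TNF set, and 0.0723, 0.0483, 0.132, 0.0712 and 0.0708 in the unstimulated set. The TNF median was 8.69 times the unstimulated one. Between the both-cytokine and TNF sets the ratio was 1.54, and the ranges just touched, with HTO2+HTO7 at 0.852 and HTO2+HTO10 at 0.856. The thinned share of cells with a CSF1 UMI had medians of 30.6%, 20.0% and 3.97%. TNIP1 (r = 0.990) and SOD2 (r = 0.986), a regulator and a target of NF-kB signalling, were most like it over the 15 hashed samples.

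CSF2, which encodes the granulocyte-macrophage factor, had another order. The gene lies on chromosome 5 at 132073790 to 132076170, plus strand, and its promoter is printed above. Its level was 0.0600, 0.0916, 0.0515, 0.0942 and 0.236 in the TNF set, against 0.00926, 0.0161, 0.0308, 0.0483 and 0.0267 in the both-cytokine set and 0.00516, 0.00536, 0.0220, 0.00593 and 0.00885 in the unstimulated set. All 5 TNF levels lay above all 10 others, the nearest pair being HTO3+HTO5 at 0.0515 (3 counts) and HTO4+HTO6 at 0.0483 (9 counts). Counts were small, with 149 in the TNF, 23 in the both-cytokine and 9 in the unstimulated set. Pooled over cells, the TNF level was 12.7 times the unstimulated level (95% interval 6.51 to 28.3). The both-cytokine level was 0.209 of the TNF level (0.128 to 0.325). CSF2 was not among the tested genes, and it was called in both comparisons where the limit on level was removed.

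The interleukin-1 pair, neighbours on chromosome 2, was also higher in the stimulated sets. IL1B lies at 112829751 to 112836903 and IL1A at 112773915 to 112784590, both on the minus strand. The IL1B level was 0.671, 0.413, 1.36, 0.590 and 0.548 in the both-cytokine set, 0.268, 0.490, 0.550, 0.352 and 0.387 in the TNF set, and 0.0568, 0.0107, 0.165, 0.0119 and 0.0501 in the unstimulated set. Both stimulated sets lay wholly above the unstimulated one, with medians 11.8 and 7.73 times as high. They overlapped each other, at a ratio of 1.52. With at most 10% mitochondrial UMIs, IL1B was no longer called for both-cytokine over unstimulated.

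An IL1B UMI was seen in a median of 14.2% of both-cytokine, 11.1% of TNF and 2.96% of unstimulated thinned cells. Without thinning the medians were 20.2%, 17.6% and 5.26%, so these shares move with depth. The 10% of both-cytokine cells with the most IL1B held 88.8% of the IL1B UMIs, a share that sparse detection alone pushes up, and 1 thinned cell held 24. In HTO3+HTO9, the highest sample with 53 cells, the level was 1.11 without its richest cell. VEZT (r = 0.949) and CEBPB (r = 0.941), the latter a transcription factor of inflammatory genes, were most like IL1B. IL1A was sparse. Its level was 0.102, 0.0349, 0.154, 0.113 and 0.0935 in the both-cytokine set, and 0.0325, 0.0539, 0.103, 0.0478 and 0.0525 in the TNF set. It was 0.00258, 0.00536, 0, 0 and 0 in the unstimulated set. Summed counts were 95, 72 and 2, so that the pooled TNF level was 27.6 times the unstimulated level, with a counting interval of 7.37 to 232. Leaving out HTO2+HTO7, HTO3+HTO9, HTO4+HTO6 or HTO3+HTO5 took its mean level under the limit of 0.05, which ended its calls. Other settings given at the end ended them too.

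IL18, the third interleukin-1 family gene, went the other way. Epithelial cells are known to hold IL-18 as a stored precursor. The gene lies on chromosome 11 at 112143251 to 112164117, minus strand. Its level was 0.454, 0.357, 0.324, 0.418 and 0.508 in the both-cytokine set, 0.903, 0.786, 0.618, 0.911 and 0.854 in the TNF set, and 1.05, 0.783, 0.915, 1.18 and 1.18 in the unstimulated set. All both-cytokine samples lay below all others, while the TNF and unstimulated sets overlapped. The both-cytokine median was 0.490 of the TNF median and 0.400 of the unstimulated one. The first value sits at the 2-fold limit. It was 0.511 without HTO3+HTO6 or HTO3+HTO9, 0.510 without HTO2+HTO6 or HTO3+HTO8, and 0.553 with TMM scaling, each of which ended that call. The call against the unstimulated set held in each of these. The thinned share of cells with an IL18 UMI had medians of 17.5%, 31.4% and 34.9%. HS3ST1 (r = 0.961) and RPP25 (r = 0.953) were most like it. The opposite-strand gene AP002884.3 had 14 counts.

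IL15, which sustains CD8+ T and natural killer cells, had its highest levels in the both-cytokine set. It lies on chromosome 4 at 141636599 to 141733987, plus strand. Its level was 0.347, 0.496, 0.462, 0.365 and 0.387 in the both-cytokine set, 0.165, 0.188, 0.0687, 0.131 and 0.204 in the TNF set, and 0.0336, 0.0590, 0.0882, 0.0475 and 0.0383 in the unstimulated set. The both-cytokine median was 2.35 times the TNF median and 8.16 times the unstimulated median, with no overlap in either. With at most 10% mitochondrial UMIs the call over the TNF set was lost. The TNF median was 3.48 times the unstimulated median, but HTO3+HTO5 (4 counts) lay below HTO3+HTO7 (8 counts). Leaving out either of these made it a call, at ratios of 3.72 and 3.85. IL15 was found in a median of 16.3%, 6.90% and 2.73% of thinned cells. CYLD and SLC25A22 (both r = 0.973) were most like it.

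LIF showed no separation between any of the sets. It lies on chromosome 22 at 30240447 to 30246851, minus strand. Its level was 0.451, 0.403, 0.663, 0.633 and 0.761 in the both-cytokine set, 0.643, 0.926, 0.653, 0.509 and 0.729 in the TNF set, and 0.403, 0.654, 0.551, 0.593 and 0.457 in the unstimulated set. Ratios of medians were 1.18 for TNF over unstimulated, 0.970 for both-cytokine over TNF and 1.15 for both-cytokine over unstimulated. Without the 4 hashed samples of fewer than 100 cells, the last 2 ratios were 0.658 and 0.859. LIF was seen in a median of 22.0%, 24.5% and 20.8% of thinned cells. CD44 (r = 0.915) and HRH1 (r = 0.914) were most like it. AC004264.1 and LIF-AS1, annotated on the opposite strand of this locus, had 274 and 18 counts, and no source used here says whether the counting used strand.

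The remaining interleukins were rare. IL23A encodes the p19 chain of IL-23, which pairs with the IL12B chain, and IL12B had 0 counts in all hashed samples. IL23A lies on chromosome 12 at 56334174 to 56340410, plus strand. Its level ranged from 0.0350 to 0.135 in the TNF set (median 0.0525, 89 counts), 0.0134 to 0.0617 in the both-cytokine set (median 0.0267, 28 counts) and 0.00590 to 0.0387 in the unstimulated set (median 0.0178, 26 counts). The sets overlapped in each comparison. IL6, on chromosome 7 at 22725884 to 22732002, plus strand, had 14, 12 and 1 counts in the both-cytokine, TNF and unstimulated sets. Of the unstimulated hashed samples 4 were at 0, which allows up to 0.0331 where 3 counts in the smallest of them mark the limit. No order of the stimulated sets could be read at this depth, their pooled ratio being 1.58 with an interval of 0.677 to 3.73.

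**Figure D3:**
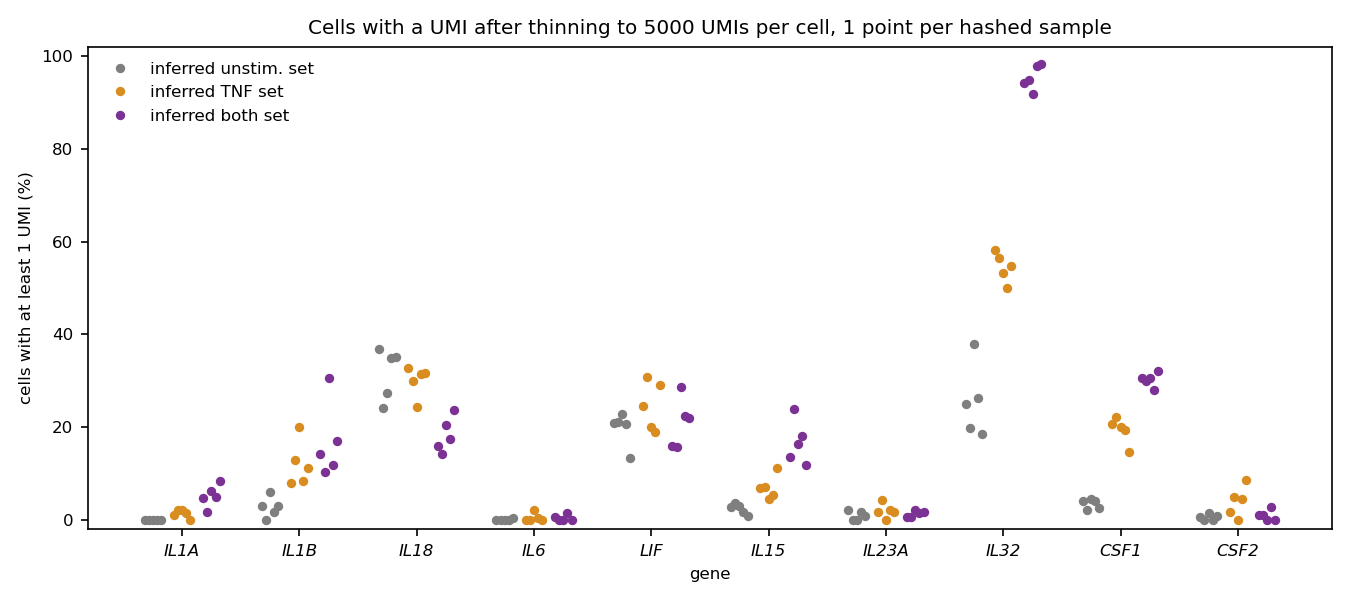
Share of cells with at least 1 UMI of each cytokine gene (y axis, percent) after thinning each cell to 5000 UMIs, 1 point per hashed sample, colored by inferred set. IL32 spans the widest range, from 18.5% to 98.3%, and IL23A reaches at most 4.29%.

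Counted together, a thinned cell held UMIs of a mean of 1.91 to 2.27 of the 10 genes in the both-cytokine set, 1.42 to 1.71 in the TNF set and 0.708 to 1.03 in the unstimulated set. The share of cells with none of them had medians of 2.43%, 15.5% and 35.2%. IL32 alone had a UMI in medians of 94.8%, 54.7% and 24.9% of thinned cells. Of the pairs of cytokines, 3 were set against each other across cells. The genes other than IL32 are at 0 in most thinned cells, so a low correlation says little. The median Spearman correlation of IL32 with CSF1 was 0.06, 0.04 and 0.07 in the both-cytokine, TNF and unstimulated sets, that of IL1B with IL32 0.08, 0.09 and 0.00, and that of IL1B with LIF -0.03, 0.04 and -0.03.

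Receptor chains and natural antagonists of the 10 cytokines were described from a list of 19 genes, of which 9 were tested. Called higher were 1 for TNF over unstimulated (IL15RA), 4 for both-cytokine over TNF (IL15RA, IL18BP, IL18R1 and LIFR) and 5 for both-cytokine over unstimulated (the same and IL6ST). None was called lower. The shares of all genes called higher were 1.88%, 2.87% and 5.08%. IL18BP reached the level to be tested only through the both-cytokine set. Without it the counts of the other 8 were 1, 3 and 4. The median log2 ratios of the 9 were 0.57, 0.43 and 1.01, beside -0.07, -0.17 and -0.24 over all genes. SIGIRR, IL1R1, IL1RAP and IL6R were not called in any comparison. CSF1R, the receptor of CSF1, had 1, 0 and 1 counts in the both-cytokine, TNF and unstimulated sets, and CSF2RB, the signalling chain of the CSF2 receptor, had 1, 0 and 2.

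**Figure D4:**
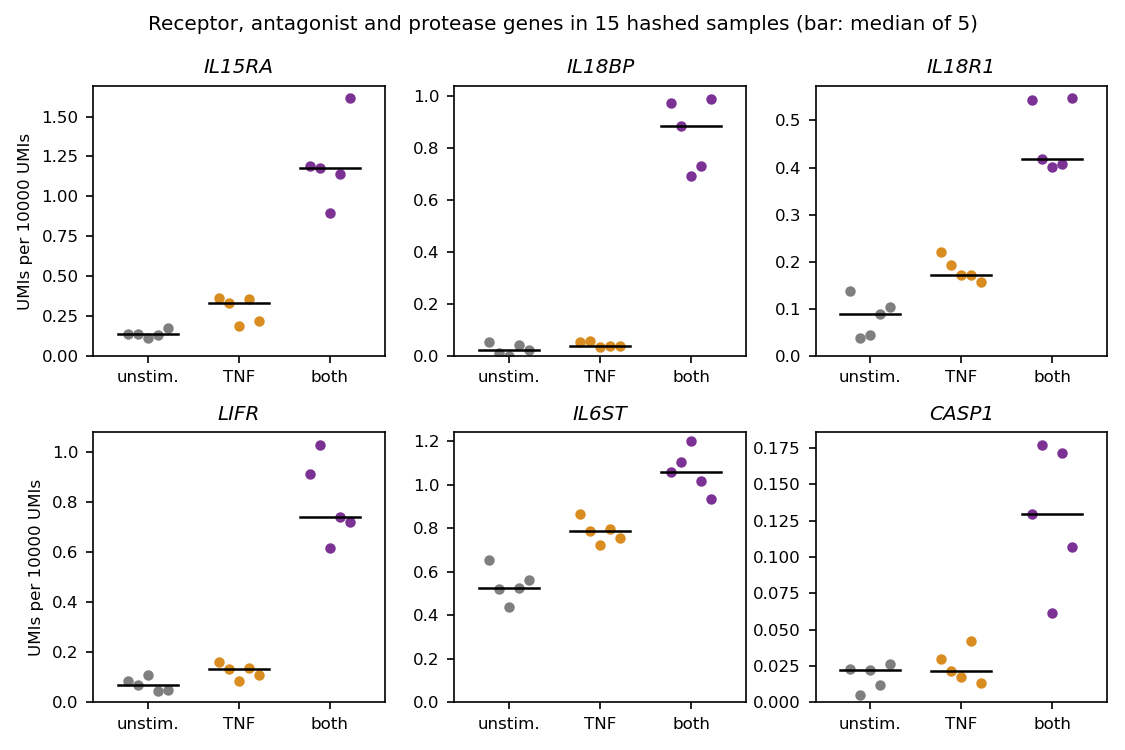
Levels (UMIs per 10000 UMIs, y axis, each panel from 0) of 5 receptor or antagonist genes and CASP1 in the 15 hashed samples by inferred set, with the median as a bar. IL18BP and LIFR are low in the unstimulated and TNF sets and high in all 5 both-cytokine samples.

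IL18BP encodes a secreted protein that binds and neutralises IL-18. Its level was 0.972, 0.883, 0.694, 0.730 and 0.989 in the both-cytokine set, 0.0525, 0.0592, 0.0344, 0.0369 and 0.0394 in the TNF set, and 0.0516, 0.0107, 0, 0.0415 and 0.0236 in the unstimulated set. The both-cytokine median was 22.4 times the TNF median and 37.4 times the unstimulated one, in the samples in which IL18 itself was lowest. IL18R1, the chain that binds IL-18, had medians of 0.419, 0.172 and 0.0890, while its partner chain IL18RAP had only 6, 7 and 0 counts. Across cells within hashed samples, the median Spearman correlation of IL18 with IL18BP was -0.05 in the both-cytokine set, where both genes are at 0 in most thinned cells.

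IL15RA, the chain that presents IL-15, had the same order of sets as IL15. Its level was 1.19, 1.18, 0.894, 1.14 and 1.62 in the both-cytokine set, 0.363, 0.334, 0.189, 0.358 and 0.217 in the TNF set, and 0.137, 0.139, 0.110, 0.130 and 0.174 in the unstimulated set. The 3 sets did not overlap, with ratios of 2.44 (TNF over unstimulated), 3.52 (both-cytokine over TNF) and 8.59 (both-cytokine over unstimulated). LIFR, the receptor chain that binds LIF, had levels of 0.914, 1.03, 0.617, 0.740 and 0.721 in the both-cytokine set. Its medians were 0.135 in the TNF and 0.0697 in the unstimulated set, so that the both-cytokine median was 5.50 and 10.6 times as high. LIF itself overlapped between all sets. IL6ST, its signalling partner, had medians of 1.06, 0.786 and 0.528.

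**Figure D5:**
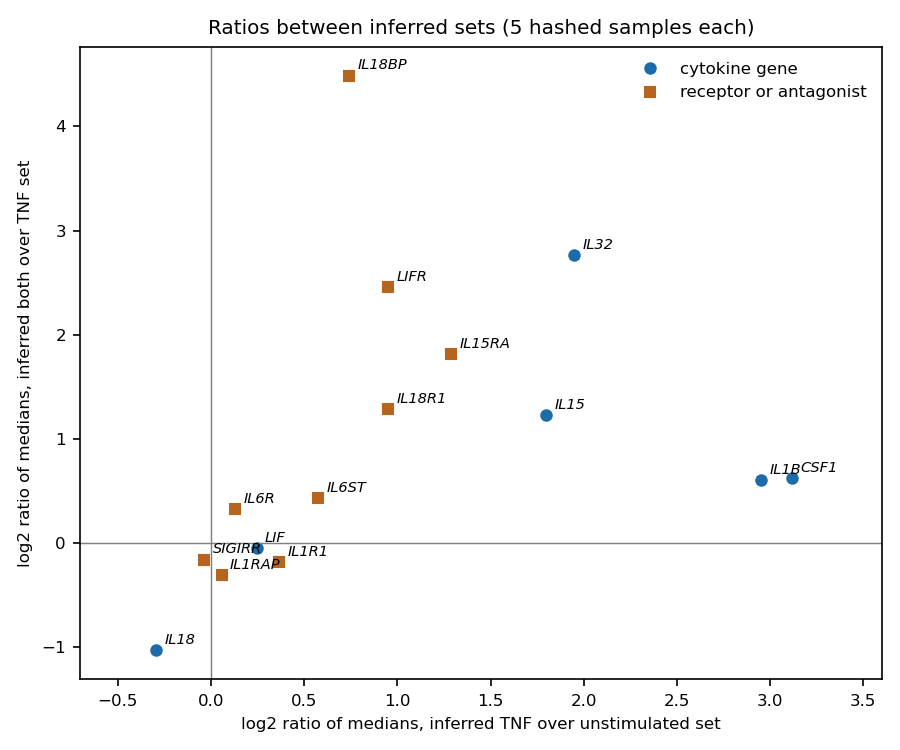
Log2 ratio of medians for TNF over unstimulated (x axis) against both-cytokine over TNF (y axis), for the tested cytokine genes with a ratio (circles) and the receptor or antagonist genes tested (squares). The axes share the TNF set. CSF1 and IL1B lie farthest right with a smaller y value, IL18BP and LIFR high with a smaller x value, IL32 is high on both, and IL18 is the lowest point.

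Genes that process or partner the cytokines came from a list of 15, of which 9 were tested. For both-cytokine over TNF and for both-cytokine over unstimulated 2 were called higher, CASP1 and CASP4, beside 2.87% and 5.08% of all genes, and 0 were called lower. CASP1 reached the level to be tested only through the both-cytokine set. Without it CASP4 was the only gene of this list called in these comparisons. For TNF over unstimulated 0 were called in either direction. CASP1, which encodes caspase-1, had a median of 0.130 in the both-cytokine set against 0.0215 in the TNF and 0.0220 in the unstimulated set, ratios of 6.02 and 5.88. CASP4, an inflammatory caspase that senses bacterial lipopolysaccharide, had medians of 2.08, 0.820 and 0.595. GSDMD, the pore protein that inflammatory caspases cut, had medians of 1.06, 0.576 and 0.542. Its both-cytokine samples lay above all others, but the ratios of 1.84 and 1.95 were under 2. PYCARD, an inflammasome adaptor, had ratios of 0.944 to 1.01.

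Of 45 other interleukin and colony-stimulating ligands, 14 had 0 counts in the hashed samples, among them IL2, IL9, IL12B, IL17A, IL21 and IL22. Only CLCF1, EBI3 and KITLG reached the level to be tested. KITLG, the ligand of the receptor KIT, was called lower for both-cytokine over unstimulated, with medians of 0.0912 and 0.196 (1 of 3 tested, beside 5.63% of all genes). No other call was made in this list. EBI3, a partner chain of IL-27 and IL-35, had medians of 0.0698, 0.0646 and 0.0178 in the both-cytokine, TNF and unstimulated sets, with overlap.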

How the data were processed

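Transcripts (10x 3' chemistry) and hashtags of the pooled suspension were sequenced as separate libraries. The authors deposited a single matrix of raw UMI counts, with genes and 10 hashtags as rows and 5269 barcodes as columns. Its header names Cell Ranger 5.0.1, whereas Cell Ranger 2.1.1 with GRCh38 stands in the submitters' processing notes; which applies was not resolved. The method of cell calling is not stated in these sources. Because UMIs were counted at transcript ends, levels of different genes are not strictly comparable. Ratios between sets are of the same gene, and rankings of different genes by level, as among the markers, are rough.

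Each cell was placed by its 2 strongest hashtags, provided the weaker of them had 10 or more counts and 3 or more times those of the next. The 3 sets of 5 pairs were inferred, and the 10 genes, the gene lists, the sets and the call rule were chosen with earlier results of these data known. Sets were compared by overlap and ratio of medians, with no test. Intervals (95%, exact Poisson for pooled levels and exact conditional binomial for their ratios) cover counting error only. For a count of 0 the limit is 3 counts. Named from the lists were genes with a mean level of at least 0.05 and the largest ratios of set medians, and most alike genes had a mean of at least 0.2. Genes named beyond this (IL6ST, GSDMD, PYCARD, EBI3, IL18RAP, CSF1R and CSF2RB, and list members at 0) were picked after their values were seen. Doublets were not called. The 394 kept cells with no clear pair were left out of all sets. Python 3.11.15, numpy 2.4.6, scipy 1.17.1, pandas 2.3.3 and, for TMM factors, edgeR 4.0.16 were used.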

Additional observations from a re-analysis of the deposited data

Results flagged for a closer look

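In 9 of 30 groups of 5 hashed samples (10 genes in 3 inferred sets), the highest level stood far from the other 4, with a gap of over 0.71 of the group's range. Chance gives this in about 1 in 20 groups of normally distributed values. Several of these groups rest on single-digit counts, where that figure does not hold, so the 9 cannot be read against it. For IL1B it was HTO3+HTO9 of the both-cytokine set (1.36), which was 1.11 without its richest cell. CSF1 stood out in all 3 sets, in HTO4+HTO9 (1.27, both-cytokine), HTO2+HTO10 (0.856, TNF) and HTO3+HTO7 (0.132, unstimulated). Without their richest cells these levels were 1.17, 0.767 and 0.101. CSF2 was high in HTO4+HTO8 of the TNF set (0.236, 36 counts, and 0.212 without its richest cell). In HTO3+HTO7 of the unstimulated set CSF2 stood at 0.0220, from 2 counts in 1 cell. IL23A was high in HTO2+HTO10 of the TNF set (0.135, 25 counts), which also had the highest LIF and CSF1 levels of that set. IL6 stood apart in HTO3+HTO5 of the TNF set (0.0344, 2 counts) and HTO4+HTO10 of the unstimulated set (0.00295, 1 count). The values without the richest cell were added after seeing the data.

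The cytokines were also detected in cells outside the hashed samples. The 394 kept cells with no clear pair had levels of 5.05 for IL32, 0.837 for IL18, 0.644 for LIF, 0.583 for CSF1, 0.332 for IL1B and 0.213 for IL15, and of 0.0511 for CSF2, 0.0460 for IL23A and 0.0392 for IL1A. Each of these lay between the lowest and the highest of the 15 hashed samples. The 1731 removed barcodes, with a median mitochondrial share of 29.2%, had levels of 2.37 for IL32, 0.508 for IL18, 0.443 for LIF, 0.416 for CSF1, 0.189 for IL1B and 0.121 for IL15. Their levels of IL23A, CSF2, IL1A and IL6 were 0.0258, 0.0227, 0.0175 and 0.0103. Among removed barcodes with a listed pair, the pooled IL32 level was 6.01, 1.03 and 0.325 in the both-cytokine, TNF and unstimulated sets, beside 15.7, 2.24 and 0.613 in kept cells, so the order of the sets was the same at lower levels.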

How the results depend on the processing

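With each hashed sample left out in turn, the count of cytokine genes called higher was 3 to 5 (TNF over unstimulated), 2 (both-cytokine over TNF) and 4 to 5 (both-cytokine over unstimulated), and called lower 0, 0 to 2 and 1. Over all genes the counts were 170 to 224, 264 to 290 and 467 to 506 higher, and 38 to 52, 152 to 197 and 515 to 613 lower. The calls of IL1A were lost at 10% mitochondrial UMIs, with no filter on cells, with a level of at least 0.2, without hashed samples under 100 cells, and without HTO2+HTO7, HTO3+HTO9, HTO4+HTO6 or HTO3+HTO5. IL18 against the TNF set was lost in some settings, so that the count of lower genes was 0 at 10% mitochondrial UMIs, with no filter on cells and with TMM. It was 2, with CSF2 added, without mitochondrial and ribosomal counts, with no filter on level and without hashed samples under 100 cells. At 10% mitochondrial UMIs (661 cells, at fewest 9 per hashed sample), 1 gene was called higher for both-cytokine over TNF, IL32. For both-cytokine over unstimulated 3 were: IL15, IL32 and CSF1. The call of IL15 over the TNF set and that of IL1B for both-cytokine over unstimulated were thus lost there. All-gene counts at that limit were 104 higher (TNF over unstimulated), 94 lower (both-cytokine over TNF) and 286 lower (both-cytokine over unstimulated). With TMM the lower counts were 80 and 304 for these last 2. With a level of at least 0.2, counts were 5 lower for TNF over unstimulated, 168 higher and 62 lower for both-cytokine over TNF, and 304 higher and 185 lower for both-cytokine over unstimulated. With no filter on level 83 genes were lower for TNF over unstimulated. Without hashed samples under 100 cells, 56 were lower there and 284 for both-cytokine over TNF. With no minimum ratio the counts were 378 and 383, 534 and 874, and 802 and 1856. The leave-one-out losses of IL1A came from the limit on level. Apart from these and the settings that change the rule itself, the causes were not tested. Of the ratios of medians of the 10 genes, 219 stayed within 1 SD of the samples and 9 moved under these alternatives, and no called ratio changed direction. Of the median shares of cells with a UMI, 20 stayed and 40 moved when cells were thinned to 3000 UMIs or not thinned. No paired analysis was possible because no label gives a hashed sample a replicate number or tumour. Depth limits IL6, IL23A, CSF2 and unstimulated IL1A, which rest on 1 to 149 counts per set.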

Other observations

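Among the other interleukin and colony-stimulating ligands, some below the limit on level had their highest values in the inferred both-cytokine set. They were picked after their values were seen. IL7, a survival factor of lymphocytes, ranged from 0.0375 to 0.0771 UMIs per 10000 in the both-cytokine set (59 counts), from 0.00657 to 0.0344 in the TNF set (28 counts) and from 0 to 0.0161 in the unstimulated set (14 counts). FLT3LG, which supports dendritic cells, ranged from 0.0463 to 0.108 (75 counts), from 0 to 0.0314 (37 counts) and from 0 to 0.0178 (15 counts). For both genes the 5 both-cytokine samples lay above the 10 others. By the call rule with no filter on level, 340 of 24625 genes were called higher for both-cytokine over TNF. For both-cytokine over unstimulated 570 were. IL12A, a subunit of IL-12, had 18, 1 and 0 counts in these sets. IL11, an interleukin-6 family cytokine, had 15, 43 and 40 counts and overlapped between all sets.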
